A study of Mus musculus with 6 samples.

Results

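The Trbv genes Trbv12-1, Trbv12-2 and Trbv16 (TRBV12-1, TRBV12-2 and TRBV16 in the deposited tables) encode the TCR-β variable segments Vβ5.2, Vβ5.1 and Vβ11. Their clones were followed in CD4+ T cells of the kidney and the spleen of 3 C57BL/6 wildtype mice, with 1 library for each organ and mouse. In all mice, the right kidney was obstructed reversibly (RUUO) from day 0 to 6, the ureter of the left kidney was ligated (UUO) on day 17, and organs were taken on day 22. According to the paper, the kidney T cells sequenced for their TCR came from the left, ligated kidney. Kidney CD4+ T cells were enriched by negative isolation and then by CD4 microbeads, spleen CD4+ T cells by CD4 microbeads alone, and both were then sorted by flow cytometry. Because the organs were enriched differently, organ and isolation cannot be told apart. The libraries hold TCR-β mRNA only, so no marker of CD4+ T cells or of other cells could be checked.

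A clone was assigned to the V gene listed first among its hits. The 3 genes, of 24 Trbv genes tested, held 23460 of 352074 clones (6.66%), 125 in the kidneys and 23335 in the spleens. More than 1 V gene was listed for 14 of them, and in 10 of these 14 the hits were both Trbv12 genes. A coding clonotype is a CDR3 nucleotide sequence with its V gene and J gene, free of stop codons and frameshifts, and 20774 of 330061 coding clonotypes belonged to the 3 genes. Each mRNA molecule was tagged with a unique molecular identifier (UMI) before amplification, and usage is the share of coding UMIs of a library. Kidney libraries held 693 to 1248 coding UMIs and spleen libraries 97735 to 224811, so the kidney values are far less precise.

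A TCR-β chain is assembled in the developing T cell by joining a V, a D and a J segment, with bases trimmed from the segment ends and added between them, and the resulting junction is the CDR3. A T cell can rearrange both alleles, and the allele that fails is often out of frame, so that non-coding clones record joining without selection of the protein. Transcripts of such alleles are lowered by nonsense-mediated decay. Vβ5 and Vβ11 T cells are the classic example of deletion by endogenous superantigens, which are products of mouse mammary tumor viruses presented by the class II molecule I-E. C57BL/6 mice lack I-E on the cell surface, and in this strain both families are retained.

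In the GRCm38.p6 annotation, the members lie on chromosome 6, Trbv12-1 at chr6:41113567-41114067, Trbv12-2 at chr6:41118864-41119364 and Trbv16 at chr6:41151791-41152230. The Trbv12 genes alternate with the Trbv13 genes (the Vβ8 family), since Trbv13-1 lies between Trbv12-1 and Trbv12-2, and Trbv13-2 follows. A further gene of the family, Trbv12-3, is annotated as a pseudogene, and 0 clones were assigned to it.

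The V-encoded start of the CDR3 shows how far the members can be told apart by this stretch. It is given as the most frequent start in spleen clones with neither a trimmed V base nor a palindromic base, which was found in 274 of 320 such clones for Trbv12-1, 204 of 229 for Trbv12-2 and 2030 of 2349 for Trbv16.
Trbv12-1: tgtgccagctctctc
Trbv12-2: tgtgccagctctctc
Trbv16: tgtgcaagcagcttaga
Both Trbv12 genes share the same 15 bases, whereas Trbv16 differs and contributes 17. The assignment between Trbv12-1 and Trbv12-2 therefore rests on bases upstream of the CDR3.

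The following clonotypes had the most UMIs of their gene in a library, and are shown as CDR3 bases with those between the V and J segments in capitals. They show how the leading junctions of the members differ in length and J gene. Palindromic bases at a V end are counted as V and printed in lower case.
Trbv12-1 with Trbj2-7, spleen of mouse 1: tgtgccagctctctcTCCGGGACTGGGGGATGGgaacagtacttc
Trbv12-1 with Trbj1-2, spleen of mouse 2: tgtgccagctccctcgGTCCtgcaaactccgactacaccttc
Trbv12-2 with Trbj1-2, spleen of mouse 1: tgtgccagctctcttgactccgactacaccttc
Trbv12-2 with Trbj2-7, spleen of mouse 2: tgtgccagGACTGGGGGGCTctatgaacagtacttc
Trbv12-2 with Trbj2-3, spleen of mouse 3: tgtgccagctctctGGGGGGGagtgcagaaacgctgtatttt
Trbv16 with Trbj2-5, kidney of mouse 2: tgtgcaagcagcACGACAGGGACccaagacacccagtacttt
Trbv16 with Trbj1-2, kidney of mouse 3: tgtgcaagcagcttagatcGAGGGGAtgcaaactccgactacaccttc
Trbv16 with Trbj2-7, spleen of mouse 1: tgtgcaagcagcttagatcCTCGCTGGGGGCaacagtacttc
Trbv16 with Trbj2-7, spleen of mouse 2: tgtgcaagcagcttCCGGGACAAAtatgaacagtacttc
Trbv16 with Trbj2-5, spleen of mouse 3: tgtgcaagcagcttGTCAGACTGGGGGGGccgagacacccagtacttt
The Trbv12-1 clonotypes held 22 and 8 UMIs in their spleens, and the Trbv12-2 clonotypes held 37, 74 and 16 UMIs. In the spleen of mouse 3, clonotypes of Trbv12-1 were tied at 3 UMIs. The leading Trbv16 clonotypes of the spleens held 32, 45 and 13 UMIs. The Trbv16 clonotype of the kidney of mouse 2 held 8 UMIs there and 10 in the spleen of the same mouse, where it ranked 13 among Trbv16 clonotypes. The Trbv16 clonotype of the kidney of mouse 3 held 3 UMIs and was not detected in the spleen of that mouse, which allows a share of up to 0.00307% of its UMIs.

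Trbv16 was the most used of the 3 genes in every library, and both Trbv12 genes were rare. Trbv16 made up 3.62%, 4.09% and 3.61% of coding UMIs in the kidney libraries of mice 1, 2 and 3, compared with 4.69%, 4.78% and 5.24% in their spleens. All kidneys lay below all spleens by this measure. In edgeR's quasi-likelihood test, kidney relative to spleen gave a log2 ratio of -0.36 (SE 0.205) with an adjusted p of 0.350, so that no change was called. With reads in place of UMIs, the log2 ratio was -0.55 and the adjusted p was 0.0200. By clonotypes the organs overlapped, with 5.18%, 4.34% and 4.02% in the kidneys against 4.84%, 4.94% and 5.30% in the spleens. Thus, the call for Trbv16 was set by the unit counted. A share is relative to the UMIs of all Trbv genes of the library, so it also depends on the other genes. Lower shares of UMIs may reflect fewer cells or less TCR-β mRNA per cell, which cannot be told apart in these bulk libraries.

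Trbv12-1 made up 0.388%, 0.401% and 1.01% of coding UMIs in the kidneys, compared with 0.563%, 0.483% and 0.657% in the spleens. These kidney shares stand for 3, 5 and 7 UMIs, and a kidney share of 0.388% had a 95% exact Clopper-Pearson interval from 0.0801% to 1.13%. For Trbv12-2, the shares were 0.776%, 0.401% and 1.44% in the kidneys, from 6, 5 and 10 UMIs, compared with 0.687%, 0.641% and 0.839% in the spleens. The kidney of mouse 3 was the highest of all libraries for both Trbv12 genes, and the organs overlapped. Kidney relative to spleen, the log2 ratio was -0.03 (SE 0.519) for Trbv12-1 and 0.12 (SE 0.446) for Trbv12-2, each with an adjusted p of 0.961 in edgeR's quasi-likelihood test. For the sum of both genes, the Vβ5 family, it was 0.06 (SE 0.342) with an adjusted p of 0.951. Hence 0 of the 3 members were called, where 1 of all 24 Trbv genes (4.17%) was called, and an effect as large as these standard errors was not detectable at this depth.

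**Figure D1:**
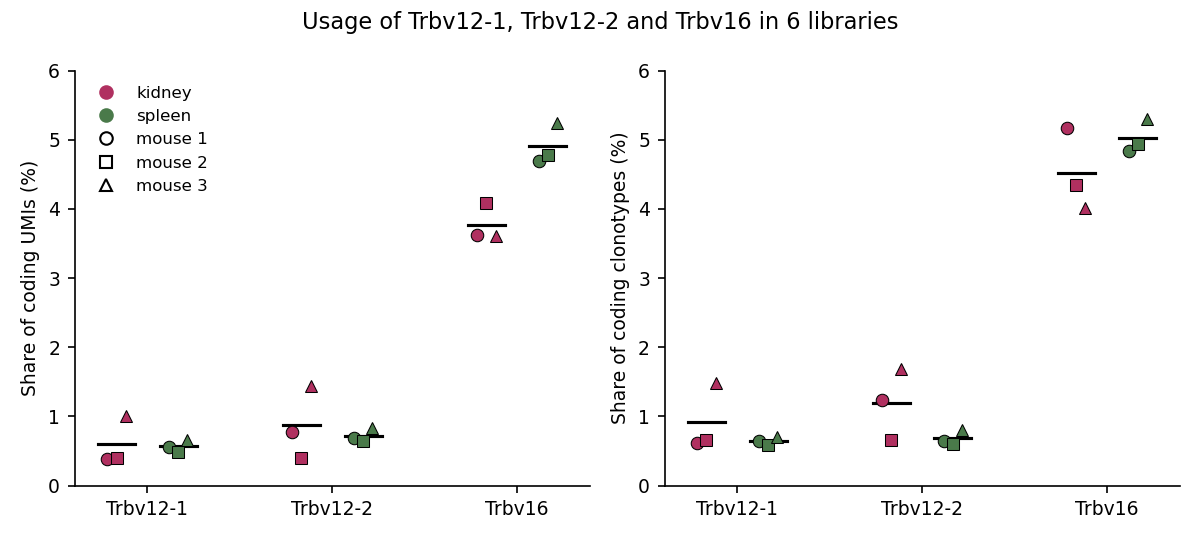
Share of coding UMIs (left) and of coding clonotypes (right) of each gene in percent, with 1 point for each library, kidneys in red, spleens in green and a bar at the mean of 3 mice. Trbv16 lies between 3.61% and 5.24% of UMIs with all kidneys below all spleens, the organs overlap by clonotypes, and both Trbv12 genes stay at or below 1.44% of UMIs.

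Genes of the same locus and a chosen list of genes for other superantigen targets were compared in the same fit. The Trbv13 genes that alternate with Trbv12 had log2 ratios of kidney to spleen from -0.05 to 0.01, and 0 of 3 were called. Of 6 genes for other Vβ segments known as superantigen targets (Trbv26, Trbv19, Trbv29, Trbv13-3, Trbv17 and Trbv15), 1 was called higher in the kidney, namely Trbv15 with a log2 ratio of 0.81 (SE 0.195) and an adjusted p of 0.000866 in edgeR. This call was lost with the mouse as a replicate block (log2 ratio 0.78, adjusted p = 0.0659 in edgeR), by reads (0.65, adjusted p = 0.0984), by clonotypes (0.17, adjusted p = 0.671) and without mouse 1 (0.69, adjusted p = 0.361) or mouse 2 (0.65, adjusted p = 0.213). The median log2 ratio of these 6 genes was 0.14, compared with -0.09 over all 24.

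As a description over 6 libraries, which share their depth and organ grouping, the log2 UMI share of Trbv12-2 correlated best with that of Trbv12-1 (Pearson r = 0.84) and then Trbv1 (r = 0.76). Trbv12-1 was closest to Trbv29 (r = 0.88) and Trbv1 (r = 0.85), and Trbv16 to Trbv14 (r = 0.88) and Trbv3 (r = 0.87), among 19 candidate genes. For Trbv16, the kidneys and spleens form separate groups of points, so its values mostly compare the organs.

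Most clones of all 3 genes were coding, but the coding share of both Trbv12 genes was below that of other genes pooled, and that of Trbv16 was not. In the spleens of mice 1, 2 and 3, 63.1%, 61.7% and 68.4% of Trbv12-1 clones were coding, from 1124, 1343 and 805 clones. The shares for Trbv12-2 were 82.2%, 74.5% and 83.6%, from 863, 1125 and 755 clones. Trbv16 reached 94.5%, 94.3% and 95.6%, compared with 94.0%, 93.8% and 94.9% for all other Trbv genes. Every spleen thus gave the same order, with Trbv12-1 lowest and Trbv12-2 between Trbv12-1 and the rest.

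On average, the coding share in the spleen minus that of other Trbv genes was -29.8 percentage points for Trbv12-1, -14.1 for Trbv12-2 and 0.566 for Trbv16. Each sign held in 3 of 3 mice, which gives p = 0.25 in an exact two-sided sign-flip test, the smallest p that 3 mice allow. Among the 24 Trbv genes, Trbv12-1 ranked 4 and Trbv12-2 ranked 5 from the lowest, after Trbv24, Trbv22 and Trbv21. The Trbv13 genes that alternate with them had coding shares of 94.7% ± 0.565 (Trbv13-1), 97.0% ± 0.437 (Trbv13-2) and 96.6% ± 0.139 (Trbv13-3) (SD, n = 3).

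Most non-coding Trbv12 clones were out of frame. Of 415, 515 and 254 non-coding Trbv12-1 clones in the spleens, 405, 508 and 252 carried a frameshift and 10, 7 and 2 an in-frame stop codon. The lengths of these CDR3s left a remainder of 1 base in 214, 255 and 125 clones and of 2 bases in 191, 253 and 127 clones, so neither frame prevailed. Non-coding clones can also arise from a sequencing error in a coding clone. Some non-coding clones lay within 1 base change, insertion or deletion of a coding clone of the same library, V gene and J gene. They made up 0.971% to 1.57% of non-coding Trbv12-1 clones and 0.806% to 2.79% of non-coding Trbv12-2 clones. This was less than the 10.1% to 13.5% for Trbv16 and the 6.79% to 11.5% for other genes. These shares are of non-coding clones, which were a larger part of Trbv12 clones. They therefore do not compare error rates between genes.

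Non-coding clones were small, with 1.07 ± 0.00369 UMIs for each Trbv12-1 clone and 1.08 ± 0.0541 for each Trbv12-2 clone (SD, n = 3 spleens). The size of the difference therefore depended on a minimum size of clones. With at least 2 UMIs for each clone, the difference was -14.7 percentage points for Trbv12-1 and -3.81 for Trbv12-2. With at least 10 reads for each clone, it was -28.1 and -12.9 percentage points.

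**Figure D2:**
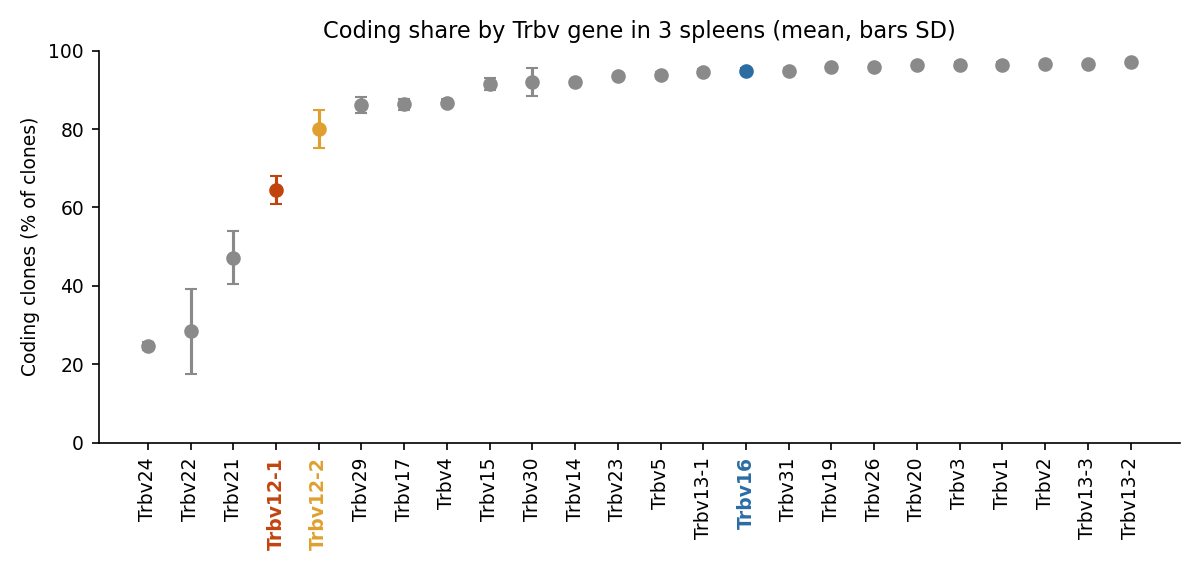
Coding clones in percent of all clones for each of 24 Trbv genes in the spleen, as mean with SD of 3 mice, ordered from low to high. Trbv12-1 (64.4%) and Trbv12-2 (80.1%) stand in places 4 and 5, and Trbv16 (94.8%) lies among the other genes.

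In the kidneys, 3 of 3, 5 of 6 and 7 of 8 Trbv12-1 clones were coding, and these shares were above those of all spleens (exact permutation test, p = 0.1, the smallest p that 3 against 3 libraries allow). The 95% exact Clopper-Pearson intervals of the kidneys reached down to 29.2%, 35.9% and 47.3%, so each included the spleen values. For Trbv12-2, 6 of 6, 5 of 10 and 8 of 9 kidney clones were coding, and the organs overlapped (exact permutation test, p = 1). For Trbv16, 25 of 26, 33 of 37 and 19 of 20 were coding, with overlap of the organs (exact permutation test, p = 0.9).

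The J gene of the clones was compared between each member and all other Trbv genes of the same spleen. The Trbj genes lie in a proximal cluster (Trbj1) next to Trbd1 and a distal cluster (Trbj2) next to Trbd2. The test was fitted for 23 Trbv genes and 12 Trbj genes on distinct coding clonotypes, with the mouse as block. A J gene share was called for 24 of 36 pairs of a member with a Trbj gene (66.7%), compared with 156 of all 276 pairs (56.5%) and 132 of the 240 pairs of other Trbv genes (55%). A call in itself is thus common in these deep libraries, and the size of the differences is given first.

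Trbv12-1 was joined to Trbj1-2 more often and to Trbj1-1 less often than other genes. Trbj1-2 was used by 15.1%, 15.1% and 15.8% of its coding clonotypes in the spleens of mice 1, 2 and 3, and by 5.32%, 5.56% and 4.97% of those of other genes. The log2 ratio was 1.53 with an adjusted p of 4.23e-05 (edgeR). Trbj1-1 was used by 3.67%, 3.38% and 3.45% of Trbv12-1 clonotypes and 10.2%, 10.3% and 9.88% of the others, a log2 ratio of -1.56 (edgeR, adjusted p = 2.42e-05). In both cases, no spleen of one group reached the values of the other. By absolute size, these ranked 5 and 4 of 276 pairs. Of its other pairs, Trbj1-4 was called higher (log2 ratio 0.26) and Trbj1-5 and Trbj1-6 lower (-1.01 and -0.64), so 5 of 12 were called (41.7%).

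Trbv12-2 shared the low use of Trbj1-1 but was joined most often to Trbj2-5. Trbj2-5 was used by 25.7%, 27.7% and 27.6% of its coding clonotypes and by 13.5%, 13.2% and 13.8% of those of other genes, a log2 ratio of 1.00 (edgeR, adjusted p = 0.000136). Trbj1-1 was used by 3.81%, 3.34% and 3.01% of Trbv12-2 clonotypes, a log2 ratio of -1.60 (edgeR, adjusted p = 9.29e-05), which ranked 3 of 276 pairs by size. Trbj1-2, which was high in Trbv12-1, was used by 7.97% ± 1.02 (SD, n = 3), a log2 ratio of 0.59 (edgeR, adjusted p = 0.00152). Fewer clonotypes carried Trbj2-2, with a log2 ratio of -0.83, and Trbj2-4, with -0.78. Trbj2-4 varied between mice, at 3.10%, 5.37% and 8.08%. In all, 10 of 12 pairs of Trbv12-2 were called (83.3%), 2 higher and 8 lower. The distal cluster was used by 75.2% ± 1.47 of Trbv12-2 clonotypes, 63.4% ± 1.73 of Trbv12-1 clonotypes and 65.5% ± 1.27 of those of other genes (SD, n = 3).

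Trbv16 showed the opposite use of Trbj1-1. It was carried by 14.1%, 14.4% and 12.6% of Trbv16 coding clonotypes, a log2 ratio to other genes of 0.46 (edgeR, adjusted p = 6.15e-11). Trbj1-6 was used by 1.37%, 1.22% and 1.11% of Trbv16 clonotypes and by 3.50%, 3.50% and 3.17% of those of other genes. The log2 ratio of -1.45 (edgeR, adjusted p = 5.35e-14) ranked 6 of 276 pairs by size. The other 7 called pairs of Trbv16 had log2 ratios between -0.35 (Trbj1-5) and 0.16 (Trbj2-7), so 9 of 12 were called (75%), 3 higher and 6 lower.

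J profiles were also compared as a whole. Between both Trbv12 genes, the total variation distance, the share of clonotypes that would have to change J gene to make the profiles equal, was 18.8%. Seen from Trbv12-1, Trbv12-2 ranked 20 of 22 genes by closeness, and Trbv20 (11.1%) and Trbv31 (11.9%) were closest. Seen from Trbv12-2, Trbv12-1 ranked 6 of 22 at the same distance. The genes closest to Trbv12-2 were Trbv23 (15.0%) and Trbv17 (15.6%), and those closest to Trbv16 were Trbv13-1 (6.81%) and Trbv5 (8.02%). These distances are a description and include counting error, which is larger for the rarer genes.

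In non-coding clones of the same spleens, the members overlapped with other genes at most of the J genes named above, but not at all of them. Trbj1-2 was used by 5.54%, 7.57% and 7.48% of non-coding Trbv12-1 clones and by 6.76%, 7.04% and 6.33% of those of other genes. Trbj1-1 was used by 8.67%, 10.7% and 4.33% of non-coding Trbv12-1 clones, compared with 8.75%, 8.65% and 8.16%. Trbj2-5 was used by 9.74%, 13.2% and 18.5% of non-coding Trbv12-2 clones, compared with 11.5%, 11.6% and 11.6%. For non-coding Trbv16 clones, the share of Trbj1-6 was 3.85%, 4.50% and 3.17%, compared with 5.18%, 4.31% and 5.07%. The groups overlapped at Trbj1-2 and Trbj1-1 of Trbv12-1, at Trbj2-5 of Trbv12-2 and at Trbj1-6 of Trbv16. Of the 24 pairs called in coding clonotypes, 18 overlapped with other genes in non-coding clones and 6 did not. Over all pairs of a member 7 of 36 did not overlap, against 84 of all 264 pairs (31.8%). Pairs without overlap were thus no more common in the members, and the 6 pairs are given as a description. In 4 of the 6, the non-coding clones were low as the coding ones were, namely Trbv12-1 with Trbj1-5, Trbv12-2 with Trbj1-3 and Trbj2-1, and Trbv16 with Trbj1-2. Trbj1-5 was used by 0.964%, 1.94% and 2.36% of non-coding Trbv12-1 clones, compared with 3.68%, 3.18% and 3.09% of those of other genes. In the other 2, the direction was opposite. Trbj2-2 was used by 7.79%, 7.32% and 8.87% of non-coding Trbv12-2 clones, compared with 4.89%, 5.15% and 5.07%, and was thus low in coding and high in non-coding clones. Trbj1-2 was used by 4.55%, 5.92% and 5.65% of non-coding Trbv12-2 clones, compared with 6.76%, 7.04% and 6.33%. It was thus high in coding and low in non-coding clones. These shares rest on few clones. Over the 3 spleens, 20 of 1184 non-coding Trbv12-1 clones carried Trbj1-5. Of 565 non-coding Trbv12-2 clones, 44 carried Trbj2-2 and 31 carried Trbj1-2.

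To test whether the J preference differed between coding and non-coding clones, an interaction was fitted for 22 Trbv genes with enough non-coding clones. This test was chosen after the profiles had been seen. It was called for 9 of 36 member pairs (25%), compared with 30 of all 264 pairs (11.4%) and 21 of the 228 pairs of other genes (9.21%). In edgeR, the difference in log2 ratio between coding and non-coding clones was 1.49 for Trbv12-1 with Trbj1-2 (adjusted p = 6.49e-08) and -1.57 for Trbv12-1 with Trbj1-1 (adjusted p = 6.48e-07), the smallest p-values of all 264. For Trbv12-2 it was -1.48 with Trbj2-2 (adjusted p = 3.26e-05), -1.52 with Trbj1-1 (adjusted p = 0.000907), -1.18 with Trbj2-4, 0.89 with Trbj1-2 and 0.77 with Trbj2-5. Trbv16 had differences of -1.21 with Trbj1-6 and 0.50 with Trbj1-1. Both Trbv12-1 pairs and Trbv12-2 with Trbj2-2 passed when any 1 mouse was left out. The other 6 pairs kept their sign but lost the call without at least 1 of the mice, and 3 pairs in all were called without mouse 2.

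**Figure D3:**
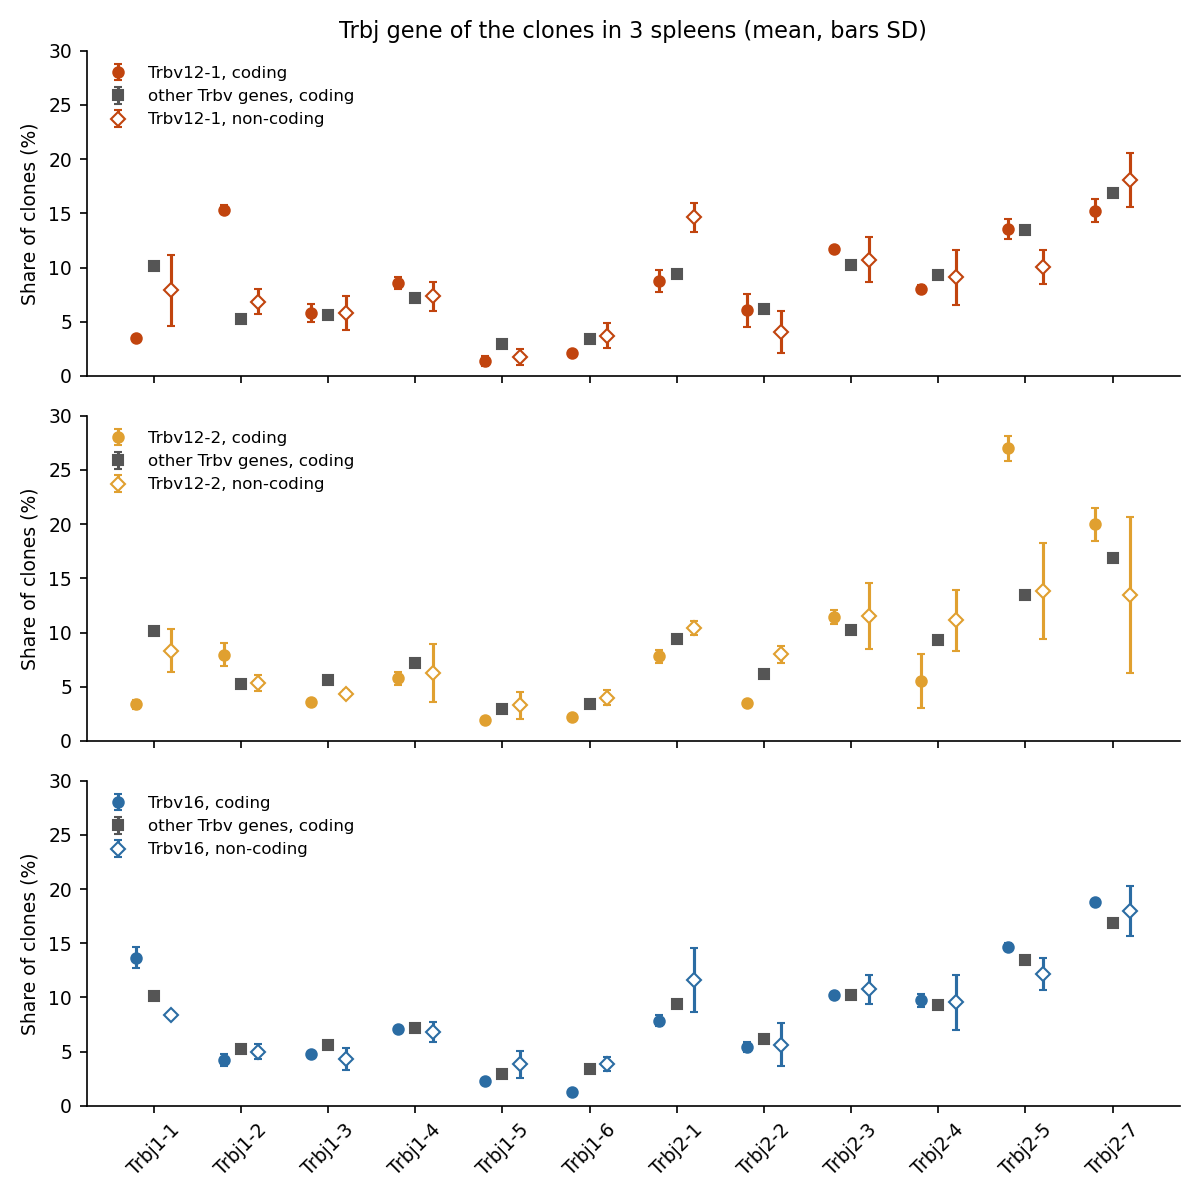
Share of clones in percent that use each of 12 Trbj genes in the spleen, as mean with SD of 3 mice, for coding clonotypes of the member (filled circles), coding clonotypes of other Trbv genes (grey squares) and non-coding clones of the member (open diamonds). Coding Trbv12-1 stands above other genes at Trbj1-2 (15.3%) and coding Trbv12-2 at Trbj2-5 (27.0%), and their non-coding clones lie at 6.87% and 13.8% there.

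The kidneys held 15 coding clonotypes of Trbv12-1 and 19 of Trbv12-2 in all, which is too few to compare J genes. Trbj1-2 was carried by 3 of the 15 Trbv12-1 clonotypes and Trbj2-5 by 2 of the 19 Trbv12-2 clonotypes.

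The V ends of Trbv12 were trimmed less often. In the spleens, 48.8%, 47.5% and 47.0% of Trbv12-1 coding clonotypes and 56.1%, 55.3% and 55.6% of Trbv12-2 coding clonotypes kept the whole V end, compared with 27.2%, 27.3% and 27.1% for other genes. Trbv16 lay below other genes, at 22.6%, 21.6% and 22.1%. The value of other genes is pooled. Of the 24 genes, only 2 had a higher mean than Trbv12-1 (47.8%), namely Trbv31 (62.3%) and Trbv12-2 (55.7%). Trbv5 (47.0%) and Trbv2 (45.8%) lay close below, so untrimmed V ends were not particular to Trbv12. Non-coding clones showed the same order, with an untrimmed V end in 40.0% ± 2.14 of Trbv12-1, 41.8% ± 0.810 of Trbv12-2, 20.1% ± 2.03 of Trbv16 and 26.6% ± 0.514 of other clones (SD, n = 3).

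Coding junctions of the members were shorter than those of other genes pooled. Between the V and J segments, coding clonotypes carried 7.41, 7.55 and 7.45 bases in Trbv12-1, 7.55, 7.29 and 7.40 in Trbv12-2 and 8.39, 8.44 and 8.43 in Trbv16, compared with 8.95, 8.96 and 8.96 in other genes. Among the 24 Trbv genes, Trbv12-2 ranked 1, Trbv12-1 ranked 2 and Trbv16 ranked 6 from the shortest mean. Trbv26 (7.98 bases), Trbv20 (8.1) and Trbv30 (8.41) were shorter than Trbv16. In non-coding clones, the means were 9.01 ± 0.170 for Trbv12-1, 9.12 ± 0.281 for Trbv12-2, 9.70 ± 0.0549 for Trbv16 and 9.63 ± 0.0796 for other genes (SD, n = 3). A D gene could not be assigned in 39.8% ± 0.433 of Trbv12-1, 38.2% ± 0.607 of Trbv12-2 and 32.2% ± 0.363 of Trbv16 coding clonotypes, compared with 27.8% ± 0.144 of the others. Each of these differences had the same sign in 3 of 3 mice, except that the mean for non-coding Trbv16 clones was above that of other genes in only 2 of them (exact sign-flip test, p = 0.25 and p = 0.5).

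**Figure D4:**
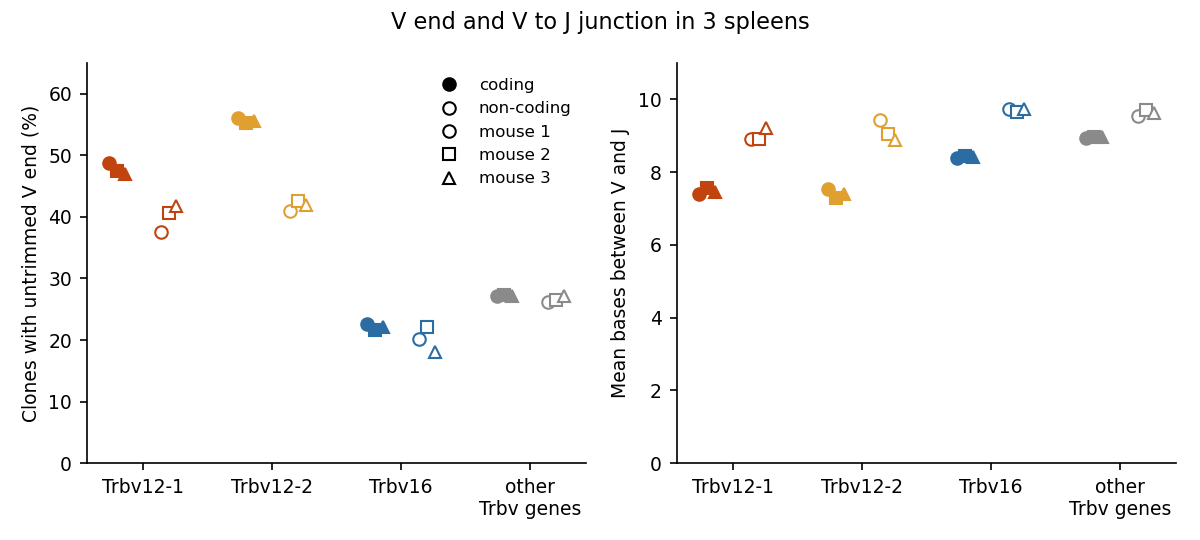
Percent of clones with an untrimmed V end (left) and mean number of bases between V and J (right) in the spleen, with 1 point for each mouse, filled for coding and open for non-coding clones. Both Trbv12 genes lie above 47% for coding clones, where all other genes pooled lie near 27.2%. They carry 7.29 to 7.55 bases, where all other genes pooled carry 8.95 to 8.96.

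The coding CDR3 of the members was also shorter in the spleen. It measured 40.9 ± 0.0417 bases in Trbv12-1, 40.8 ± 0.249 in Trbv12-2 and 41.2 ± 0.00781 in Trbv16, compared with 41.6 ± 0.00966 in other genes (SD, n = 3), with 3 of 3 mice lower for each member (exact sign-flip test, p = 0.25). Among the 24 Trbv genes, Trbv12-2 ranked 5, Trbv12-1 ranked 9 and Trbv16 ranked 12 from the shortest mean. The shortest were Trbv30 (38.8 bases) and Trbv20 (39.1 bases), so short CDR3s were not particular to the members. The most frequent length was 42 bases in the members and in other genes. A length of 45 bases was found in 17.1% ± 0.0501 of Trbv12-1, 16.8% ± 2.97 of Trbv12-2 and 18.6% ± 0.313 of Trbv16 clonotypes, compared with 21.7% ± 0.0914 of the others (SD, n = 3). The kidney values were 41.0 ± 1.73, 40.7 ± 2.24 and 41.5 ± 0.878 bases (SD, n = 3), and they overlapped those of the spleen for each member (exact permutation test, p = 1, 1 and 0.7).

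**Figure D5:**
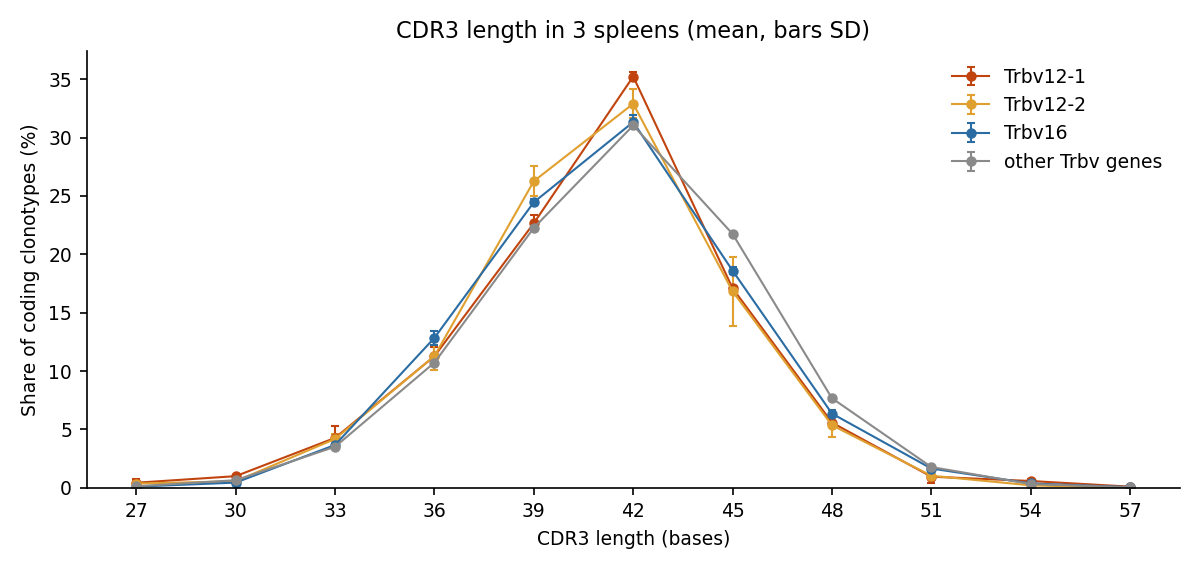
Share of coding clonotypes in percent by CDR3 length in bases in the spleen, as mean with SD of 3 mice, for each member and all other Trbv genes. All peak at 42 bases, and the members lie below other genes at 45 bases, where other genes reach 21.7%.

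The same clonotype can occur in several mice when its junction is easily made. In the spleens of mice 1, 2 and 3, 3.53%, 3.26% and 3.63% of Trbv12-1 and 4.51%, 4.53% and 5.55% of Trbv12-2 clonotypes were also found in another spleen. Trbv16 reached 8.58%, 7.20% and 9.23%, and other genes 7.72%, 6.60% and 8.98%. The mean difference from other genes was -4.30 percentage points for Trbv12-1, -2.90 for Trbv12-2 and 0.568 for Trbv16, with the same sign in 3 of 3 mice for each (exact sign-flip test, p = 0.25). The value of Trbv16 turned to -3.19 percentage points where the V gene did not have to match. With the V gene matched, Trbv12-1 ranked 9, Trbv12-2 ranked 12 and Trbv16 ranked 19 of 24 Trbv genes from the lowest share. The pooled value of other genes is weighted to the most used genes. Among little-used genes, Trbv17 reached 2.59%, Trbv23 1.81%, Trbv14 1.60% and Trbv29 1.35%, below both Trbv12 genes. In all 3 spleens, 4 clonotypes of Trbv12-1, 5 of Trbv12-2 and 88 of Trbv16 were present. These were 0.195%, 0.236% and 0.561% of the distinct spleen clonotypes of each gene, compared with 0.459% for other genes. Shared clonotypes had short junctions, with 4.09 bases between V and J in Trbv12-1, 3.74 in Trbv12-2 and 4.68 in Trbv16. Clonotypes of a single spleen carried 7.60, 7.60 and 8.76 bases. Other genes differed in the same direction, with 6.05 bases in shared clonotypes and 9.20 in those of a single spleen. The clonotype with the most UMIs among those in all 3 spleens is shown for each gene, with capitals as above.
Trbv12-1 with Trbj1-2: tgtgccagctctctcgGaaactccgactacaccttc
Trbv12-2 with Trbj2-1: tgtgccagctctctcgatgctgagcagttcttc
Trbv16 with Trbj2-5: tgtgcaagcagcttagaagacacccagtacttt
They held 3, 4 and 1 UMIs (Trbv12-1), 2, 8 and 3 UMIs (Trbv12-2) and 9, 21 and 7 UMIs (Trbv16) in the spleens of mice 1, 2 and 3, and the Trbv12-2 clonotype also held 1 UMI in the kidney of mouse 3. The junction of Trbv12-1 carries 1 base between V and J, and those of Trbv12-2 and Trbv16 carry 0. Palindromic bases are not among these. The V stretch counts 16 bases in the Trbv12-1 clonotype and 17 in the Trbv12-2 clonotype, where the V end alone has 15.

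The shared values depend on whether the V gene has to match. In each of the 6 libraries, 0 CDR3 sequences were listed more than once, so a CDR3 has a single V gene in a library. Of 78 combinations of a CDR3 and a J gene that were listed under Trbv12-1 in a spleen and found in at least 2 spleens, 33 carried Trbv12-1 throughout and 40 appeared under Trbv12-1 in one spleen and Trbv12-2 in another. For Trbv16, 625 of 626 carried Trbv16 throughout. If only the CDR3 and the J gene had to match, the share found in another spleen was 5.51% ± 0.378 for Trbv12-1, 6.86% ± 1.11 for Trbv12-2, 8.34% ± 1.03 for Trbv16 and 11.5% ± 1.67 for other genes (SD, n = 3). The mean difference from other genes was then -6.02 percentage points for Trbv12-1, -4.68 for Trbv12-2 and -3.19 for Trbv16, lower in 3 of 3 mice for each (exact sign-flip test, p = 0.25). The sign thus turned for Trbv16, whose own share hardly moved, while that of other genes rose from 7.77% to 11.5%. Identical CDR3s of different cells with different V genes would be merged in such a table, and the extent was not tested.

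Of the kidney clonotypes of the 3 genes, 12 of 34, 20 of 43 and 15 of 34 also occurred in the matching spleen. In percent, these were 35.3%, 46.5% and 44.1%, compared with 49.2%, 51.0% and 43.3% of the kidney clonotypes of other Trbv genes. The mean difference was -5.87 percentage points (SD 7.47, n = 3) and differed in sign between mice (exact sign-flip test, p = 0.5). All Trbv12-1 clonotypes of the kidneys (3, 5 and 7) held 1 UMI, and the largest Trbv12-2 clonotype held 2 UMIs. For other genes, 72.4%, 76.8% and 76.1% of kidney clonotypes also held 1 UMI. At least 3 UMIs were reached by 0 of 25, 3 of 33 and 1 of 19 Trbv16 clonotypes of mice 1, 2 and 3 in the kidney. For other genes, these were 53 of 449, 72 of 717 and 35 of 439 (11.8%, 10.0% and 7.97%). The difference was not tested. In the spleens, Trbv12-1 clonotypes were smaller than those of other genes, with 1.25 ± 0.0753 compared with 1.44 ± 0.177 UMIs for each clonotype (SD, n = 3), and lower in 3 of 3 mice (exact sign-flip test, p = 0.25). Trbv16 held 1.40 ± 0.156 UMIs for each clonotype.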

How the data were processed

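The authors amplified TCR-β mRNA of sorted CD4+ T cells by 5′ RACE with UMIs and assembled the reads with MiXCR. The authors deposited, for each clone, the read count and the UMI count, which are not normalized, their fractions of the library, and the lowest quality score of the CDR3. Counts were used here, and the fractions and the score were not. The build named in the submitters' notes is GRCm38.

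V, D and J genes are the first gene of each hit list, and all 24 Trbv names matched symbols of the RefSeq GRCm38.p6 table, which gave the positions. A V end counts as untrimmed if no V base was deleted. Palindromic bases at the V end count as V and are left out of the bases between V and J. The members and lists were chosen with earlier results of these data known. For usage, the quasi-likelihood test of edgeR was run on summed UMIs with library sizes only, a Trbv gene needing 10 or more UMIs in all, and standard errors are those implied by the p-value. J gene shares were tested by the same test on distinct clonotypes for Trbv and Trbj genes with at least 100 clonotypes over the 3 spleens. All p-values of a fit were adjusted by the Benjamini-Hochberg method. For J genes, the plan was to adjust over the member pairs, but the adjustment was made over all 276 pairs. Calls are at an adjusted p under 0.05. Other measures were compared by exact two-sided permutation over the 20 relabellings of the libraries or by sign flips over mice, whose smallest p are 0.1 and 0.25. These p-values were not adjusted over the measures.

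The test of J genes in coding against non-coding clones, the count of J pairs that did not overlap in non-coding clones, the alternatives for differences within spleens and the sharing without the V gene were chosen after seeing the data. Trbv genes named by likeness are, for each member, the 2 with the highest correlation of usage and the 2 with the closest J profile. The clonotypes named have the most UMIs of their gene in a library without a tie, with at least 3 UMIs in a kidney, or the most UMIs among those in all 3 spleens.

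The labels give an organ and a number, and a kidney and a spleen of the same number were taken as 1 mouse. Of the kidney clonotypes of Trbv genes other than the members, 49.2%, 51.0% and 43.3% occurred in the spleen of the same number. In the other spleens, 9.80%, 9.48% and 11.8% occurred. Deviations of kidney and spleen usage from the mean of each organ correlated with r of -0.08, 0.33 and 0.47 in mice 1, 2 and 3 (20 Trbv genes). Intervals are exact Clopper-Pearson intervals at 95%, and a count of 0 allows up to 3 counts. Both cover counting error only. Fits were run in edgeR 4.0.16 and, as an alternative, DESeq2 1.42.0, under R 4.3.3. Tables and figures were made in Python 3.11.15 (pandas 2.3.3, numpy 2.4.6, matplotlib 3.10.9, scipy 1.17.1). Both edgeR steps were also run on simulated counts, drawn gene by gene from a negative binomial distribution. UMIs were not grouped in clones there, and of the members only Trbv16 was scored. These runs therefore do not cover the Trbv12 genes, and no result here rests on them. The protein and promoter sequences of the members were not used here.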

Additional observations from a re-analysis of the deposited data

Results flagged for a closer look

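The UMIs for each Trbv12-2 clonotype, minus those of other Trbv genes, moved in opposite directions in both organs. The mean difference was -0.509 in the kidney, with all 3 kidneys below other genes, and 0.0840 in the spleen, with all 3 spleens above. The kidney value rests on clonotypes of 1 or 2 UMIs, and the difference between the organs was not tested.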

How the results depend on the processing

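The usage of Trbv12-1 had no stable direction, since its log2 ratio of kidney to spleen was 0.058 with TMM factors, 0.14 in DESeq2, 0.44 by clonotypes, 0.17 by reads and 0.0075 with the mouse as a replicate block, and ranged from -0.40 to 0.17 when 1 mouse was left out. That of Trbv12-2 ranged from -0.28 to 0.52 without 1 mouse. Trbv16 was negative under all 11 alternatives and was called by reads alone, with a log2 ratio of -0.55. Its log2 ratio was -0.28 with TMM factors (edgeR, adjusted p = 0.568) and -0.19 in DESeq2 (adjusted p = 0.634). With the replicate block it was -0.37 (edgeR, adjusted p = 0.634). The number of Trbv genes called between the organs was 2 with TMM factors, 2 in DESeq2, 4 by reads, 0 by clonotypes and 0 with the replicate block, and 0 to 1 without 1 mouse. It was 1 (Trbv15) in the reported fit.

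The kidney minus spleen difference in CDR3 length ranged from -0.44 to 1.07 bases for Trbv12-1, -1.54 to 0.81 for Trbv12-2 and -0.22 to 0.64 for Trbv16 without 1 mouse, and for Trbv12-2 it was 0.46 when weighted by UMIs. The difference in coding share ranged from -9.59 to 11.6 percentage points for Trbv12-2 and -2.86 to 0.533 for Trbv16 without 1 mouse. A minimum of 2 UMIs left no kidney clones of Trbv12-1 and too few of Trbv12-2 for these values. In the spleens, the differences of the members from other genes in coding share, CDR3 length, untrimmed V ends and junction length kept their sign under all 7 alternatives each.

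Of the J pairs, 24 were called, and 14 to 19 without 1 mouse, 14 of them without mouse 2 and 15 without mouse 1. In the other settings 19 to 24 were called. Under all 9 alternatives, 9 of the 24 pairs were called, which included Trbv12-1 with Trbj1-1 and Trbj1-2, Trbv12-2 with Trbj1-1 and Trbj2-5 and Trbv16 with Trbj1-1 and Trbj1-6. DESeq2 turned the sign of Trbv12-2 with Trbj1-4 (0.088) and with Trbj2-1 (0.15). Without 1 mouse, 3 to 8 member pairs differed between coding and non-coding clones. The cause of these changes was not tested. The kidney libraries of 693 to 1248 UMIs hold 3 to 10 UMIs of each Trbv12 gene, which limits all kidney values.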
